A study of Mus musculus with 9 samples.

Results

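Apolipoproteins and chylomicron assembly are represented by 8 genes, Apoa1, Apoa4, Apob, Apoc2, Apoc3, Apoe, Mttp and Sar1b, chosen by name and not by their signal. Of these, 6 were found by symbol among the 15674 named genes of the arrays. Sar1b was found through its RefSeq accession, under the older name Sara2, which brings the number measured to 7. No probe was matched to Apob, so the protein that forms the backbone of the chylomicron is not analysed here. Each of the 7 genes had 1 probe. All 63 spots of these probes, over 9 arrays, reached the signal-to-noise ratio of 3 that counted as detection, with ratios between 14.7 and 127, and none had a failed quality flag.

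The arrays are single-colour Applied Biosystems arrays with chemiluminescent detection and 60-mer probes. Each held RNA from the jejunum of 1 mouse. All mice were males of the outbred stock OF1, aged 7 weeks, from generation 3 of a feeding trial. There were 3 mice on each feed: mice 7, 8 and 10 on feed B, mice 1, 3 and 4 on feed K and mice 4, 8 and 11 on feed G. The meaning of the letters is not given in the sources used here, so no feed was taken as a control. The methods name a custom maize diet, given ad libitum, as the subject of these arrays, without saying which letter it was. Every mouse had been without food for 3 h of the light phase when the jejunum was taken.

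Absorbed fat leaves the enterocyte in chylomicrons. In the endoplasmic reticulum the microsomal triglyceride transfer protein, encoded by Mttp, loads lipid onto apolipoprotein B, and apolipoprotein A-IV (Apoa4) joins the growing particle. The small GTPase encoded by Sar1b then starts the COPII coat that carries the particle towards the Golgi apparatus. In plasma, apolipoprotein C-II (Apoc2) activates lipoprotein lipase, apolipoprotein C-III (Apoc3) restrains it, and apolipoprotein E (Apoe) is the ligand by which remnants are taken up in the liver. Apolipoprotein A-I (Apoa1), the main protein of high density lipoprotein, is also made by the jejunum.

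Apoa1, Apoc3 and Apoa4 follow one another in that order on mouse chromosome 9, next to Apoa5, while Apoc2 and Apoe lie in the apolipoprotein cluster of chromosome 7, next to Apoc4 and Apoc1. Mttp lies on chromosome 3, and Sar1b lies on chromosome 11 beside Sec24a, itself a gene of the COPII coat. The 250 bases before the start are shown for 4 genes, because the signals of Apoa4, Apoc2 and Mttp were positively correlated over the mice, with one another and with Apoc3 under each scaling of the arrays, and Apoa1 lies near Apoa4. They come from RefSeq on GRCm38.p6 and lie at chr9:46228380-46228629 (Apoa1, plus strand), chr9:46240594-46240843 (Apoa4, plus strand), chr7:19677942-19678191 (Apoc2, minus strand) and chr3:138143419-138143668 (Mttp, minus strand). Apoc3 had no entry in the promoter table. Capitals mark a motif match, and the last base printed is the one just before the start.
Apoa1: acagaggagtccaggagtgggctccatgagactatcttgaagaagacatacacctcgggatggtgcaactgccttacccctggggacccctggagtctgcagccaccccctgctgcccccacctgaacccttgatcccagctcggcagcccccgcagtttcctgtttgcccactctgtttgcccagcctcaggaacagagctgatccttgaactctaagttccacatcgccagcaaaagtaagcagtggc
Apoa4: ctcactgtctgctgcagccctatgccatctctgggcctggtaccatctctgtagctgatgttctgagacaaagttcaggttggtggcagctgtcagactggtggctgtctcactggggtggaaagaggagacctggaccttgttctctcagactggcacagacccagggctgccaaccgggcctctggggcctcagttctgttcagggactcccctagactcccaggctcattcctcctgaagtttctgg
Apoc2: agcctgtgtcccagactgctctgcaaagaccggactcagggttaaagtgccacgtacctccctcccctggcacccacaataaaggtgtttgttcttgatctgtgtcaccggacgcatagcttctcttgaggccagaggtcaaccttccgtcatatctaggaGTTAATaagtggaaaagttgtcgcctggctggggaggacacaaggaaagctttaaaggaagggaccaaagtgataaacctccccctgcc
Mttp: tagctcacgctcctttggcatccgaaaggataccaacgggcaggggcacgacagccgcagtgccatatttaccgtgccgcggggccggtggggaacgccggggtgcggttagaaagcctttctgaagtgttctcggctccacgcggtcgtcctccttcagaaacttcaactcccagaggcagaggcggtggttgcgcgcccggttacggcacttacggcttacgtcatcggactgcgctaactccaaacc
Both strands were searched for 6 short motifs, which do not overlap one another in these windows. They were CAAAGTC and CAAAGGT for HNF4, GTTAAT for HNF1, TTTATGG for CDX2, AGATAA for GATA factors and TATAAA for the TATA box, found in 3.84%, 3.54%, 6.43%, 2.43%, 9.99% and 12.4% of 32851 mouse promoter windows of the same length. The single match in these 4 windows was GTTAAT in Apoc2, which starts at position -89. Among the windows not shown, that of Apob held an HNF4 match at -93 and a TATA box match at -60. Those of Apoe held HNF1 and TATA box matches. The GC content of the windows was 58.0% for Apoa1, 57.6% for Apoa4, 52.0% for Apoc2 and 61.2% for Mttp.

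The arrays were checked before the genes were compared. Markers of villus enterocytes with a probe, Vil1, Anpep, Treh, Slc5a1 and Krt20, were detected on all 9 arrays. Their summed signal was 664310 to 839486 on feed B, 936059 to 987144 on feed K and 889374 to 902001 on feed G, so that feed B lay below both other feeds without overlap. After median scaling feeds B (527787 to 798274) and K (from 796536) overlapped. Of the 5 markers, Slc5a1 alone lay lower on feed B than on both other feeds without overlap. Anpep, Treh and Krt20 of feed B overlapped with each other feed, and Vil1 overlapped with feed G. Treh was highest of all mice in mouse 8 of feed B (15.99). The part of these marker differences in the comparisons with feed B was not tested. Among hepatocyte markers, the other main source of these apolipoproteins, Ttr was detected on all 9 arrays, Alb on 5 and Fga on none, and the summed signal of the list was 899 to 1600 on feed B, 1627 to 2223 on feed K and 681 to 2216 on feed G. Fabp6, the ileal bile acid binding protein and a marker of the distal small intestine, differed widely. Its log2 signal was 15.81, 4.67 and 17.84 in mice 7, 8 and 10 of feed B, 8.92, 12.19 and 11.81 in mice 1, 3 and 4 of feed K and 8.10, 8.96 and 19.51 in mice 4, 8 and 11 of feed G, and it was not detected in mouse 8 of feed B. Slc10a2, the ileal bile acid transporter, was likewise highest in mouse 11 of feed G (12.66) and mouse 10 of feed B (12.05). The summed signal of the 5 distal markers was 57976 to 359322 on feed B, 61435 to 64235 on feed K and 40038 to 846482 on feed G. Fabp6 itself carried most of the highest sums, in mouse 10 of feed B and mouse 11 of feed G. Slc51b was also highest in these mice (16.58 and 16.06). Slc51a did not follow Fabp6 on feed B, at 14.37, 14.35 and 14.46 in mice 7, 8 and 10, though mouse 11 of feed G was highest (14.50). In mouse 7 of feed B, Slc10a2 (9.46) lay below mouse 4 of feed K (9.73), and Fgf15, another ileal gene, was detected in mouse 11 of feed G alone. By Fabp6, mice 7 and 10 of feed B and mouse 11 of feed G stand apart, for mouse 7 by Fabp6 and not by Slc10a2, and results that rest on these 3 arrays are also given without them.

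**Figure D1:**
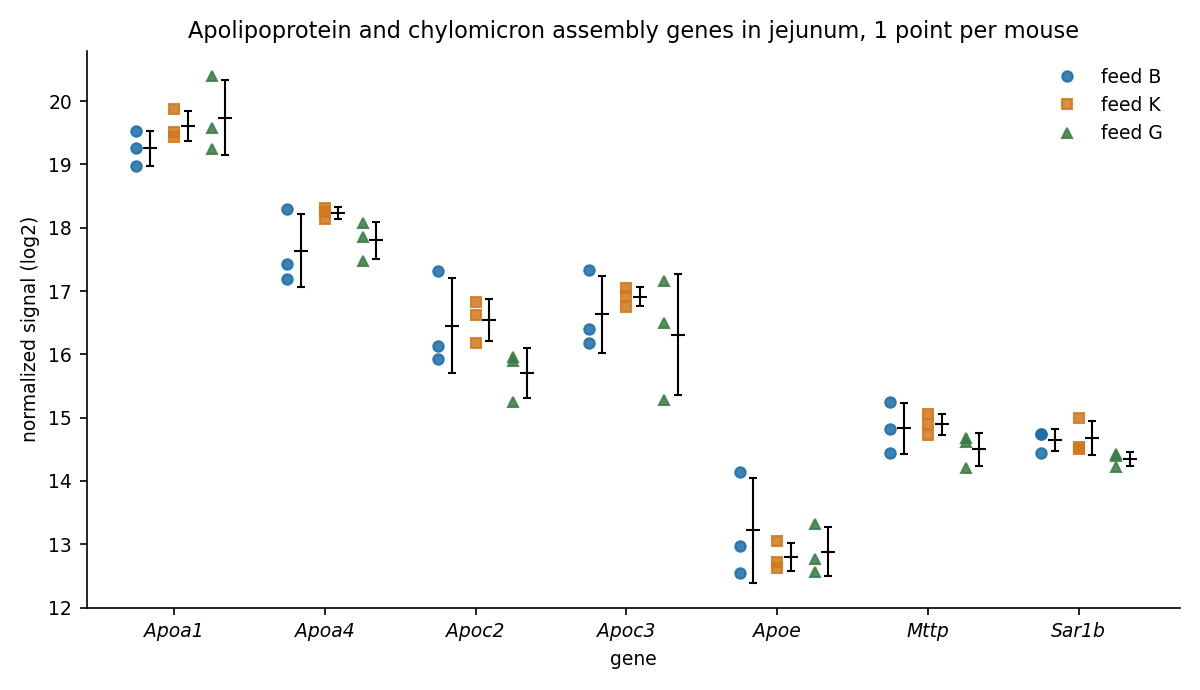
Normalized signal (log2, vertical axis) of the 7 genes, with 1 point per mouse coloured by feed, and the mean and SD of each feed (n = 3) beside the points. Heights of different genes cannot be compared because each gene has its own probe. The wide feed B groups of Apoa4, Apoc2 and Apoc3 have mouse 8 on top, and Apoe has mouse 10 of feed B on top, at 14.15.

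The A apolipoproteins are described first. Values are log2 of the quantile normalized signal. That of Apoa1 was 18.98, 19.52 and 19.26 in mice 7, 8 and 10 of feed B, 19.52, 19.88 and 19.44 in mice 1, 3 and 4 of feed K and 19.25, 19.57 and 20.40 in mice 4, 8 and 11 of feed G. Mouse 11 of feed G was highest, mouse 7 of feed B was lowest, and all 3 feeds overlapped. The means were 19.25 ± 0.27, 19.61 ± 0.24 and 19.74 ± 0.59 on feeds B, K and G (SD, n = 3).

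Apoa4 had values of 17.20, 18.29 and 17.43 on feed B, 18.32, 18.13 and 18.24 on feed K and 17.85, 18.07 and 17.48 on feed G, with the mice in the same order. The 3 mice of feed K lay close together and above all 3 of feed G, whereas feed B held the lowest value as well as one of the highest. Means were 17.64 ± 0.57, 18.23 ± 0.094 and 17.80 ± 0.30 (SD, n = 3). In whole jejunum, fewer enterocytes and less RNA per enterocyte cannot be told apart. The lowest Apoa4 signals, in mice 7 and 10 of feed B and mouse 11 of feed G, fell on the 3 arrays with the most Fabp6.

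The C apolipoproteins varied more. Apoc2 had values of 15.93, 17.31 and 16.12 on feed B, 16.17, 16.62 and 16.83 on feed K and 15.90, 15.96 and 15.25 on feed G, and its highest value was 4.18-fold above its lowest. Mouse 8 of feed B stood above all others, and all 3 mice of feed G lay below all 3 of feed K. Its means were 16.46 ± 0.75, 16.54 ± 0.34 and 15.70 ± 0.40 on feeds B, K and G (SD, n = 3).

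Apoc3 had values of 16.39, 17.33 and 16.17 on feed B, 17.05, 16.93 and 16.75 on feed K and 17.16, 16.50 and 15.28 on feed G. Mouse 8 of feed B was highest and mouse 11 of feed G lowest, a 4.13-fold range, and the feeds overlapped. Feed G alone spanned nearly this whole range, and the means were 16.63 ± 0.61, 16.91 ± 0.15 and 16.31 ± 0.95 (SD, n = 3). The 3 lowest mice were again those with the most Fabp6.

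Apoe had values of 12.97, 12.55 and 14.15 on feed B, 12.63, 13.06 and 12.71 on feed K and 12.56, 13.33 and 12.77 on feed G. Mouse 10 of feed B stood above the rest, and the feeds overlapped, with means of 13.22 ± 0.83, 12.80 ± 0.23 and 12.89 ± 0.39 (SD, n = 3). Apoe is also made by macrophages and adipocytes. Adipocyte markers had their highest summed signal in mouse 10 of feed B, 30268, with 5775 to 30268 on feed B, 12656 to 15932 on feed K and 9456 to 11418 on feed G. Of the 6 adipocyte markers, Adipoq, Plin1 and Cfd were detected on all 9 arrays, Lep on 3 and Retn on 2. The summed macrophage markers were not highest in that mouse, at 295273 against 341818 in mouse 8 of feed G, and ran from 222439 to 295273 on feed B, from 164670 to 251792 on feed K and from 68586 to 341818 on feed G. Lyz2 carried most of this sum, and without it the sum was 17664 in mouse 10 of feed B, within ranges of 10859 to 17664 on feed B, 9416 to 21500 on feed K and 13564 to 17803 on feed G. Of the 8 macrophage markers, 6 were detected on all 9 arrays and none was undetected throughout. The part of these cells in the Apoe signal was not tested.

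The genes of lipid loading and export varied least. Mttp had values of 14.82, 15.24 and 14.44 on feed B, 14.91, 14.72 and 15.05 on feed K and 14.67, 14.62 and 14.20 on feed G. Mouse 8 of feed B was highest and mouse 11 of feed G lowest, a 2.05-fold range. All 3 mice of feed G lay below all 3 of feed K, and the means were 14.83 ± 0.40, 14.89 ± 0.17 and 14.50 ± 0.26 (SD, n = 3).

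Sar1b had values of 14.44, 14.74 and 14.74 on feed B, 14.51, 14.54 and 14.99 on feed K and 14.43, 14.39 and 14.22 on feed G. Every mouse of feed G lay below every mouse of the other feeds, by little, since the whole range was 1.71-fold. The means were 14.64 ± 0.17, 14.68 ± 0.27 and 14.35 ± 0.11 (SD, n = 3).

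Measured over all 9 mice, the SD of log2 signal was 0.63 for Apoc3, 0.60 for Apoc2, 0.51 for Apoe, 0.42 for Apoa4, 0.41 for Apoa1, 0.31 for Mttp and 0.23 for Sar1b. Among 5887 genes detected on all 9 arrays the median SD was 0.29, and 6 of the 7 genes were above it. Apoc3 was more variable than 91.9% of these genes and Apoc2 than 90.9%, whereas Sar1b was more variable than 32.2%. Within feeds the SD was 0.66 for Apoc3, 0.53 for Apoc2 and 0.20 for Sar1b, so that mice on the same feed differed about as much as all mice. The SD of Apoe was 0.27 without mouse 10 of feed B. Without mouse 11 of feed G the SD was 0.40 for Apoc3, below the 0.51 of Apoc2, and 0.27 for Apoa1. The inverse of the signal-to-noise ratio, as a percentage, was between 0.788% and 6.83% for these probes. It is a score of noise at the spot and does not cover that of labelling, hybridization or dissection.

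Comparison of the feeds asked whether any of these genes changed with the diet. None of the 7 passed an adjusted p of 0.05 in the limma F test over the 3 feeds or in any pair of feeds, where 0% of 9652 tested genes passed. None had an unadjusted p under 0.05 either, beside 5.37% of all genes in the F test, 6.31% for feed K against feed B, 5.74% for feed G against feed B and 4.54% for feed G against feed K. The smallest F p was that of Apoc2, 0.124 before and 0.903 after Benjamini-Hochberg adjustment over all genes. An exact permutation test of F, which cannot go below 0.00357 with 280 splits of the mice, gave p-values between 0.121 for Sar1b and 0.711 for Apoe. These p-values set differences between feeds against the spread between single mice, as estimated for limma with help from the other genes tested. With 1 array per mouse, that spread includes noise of labelling, hybridization and dissection.

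**Figure D2:**
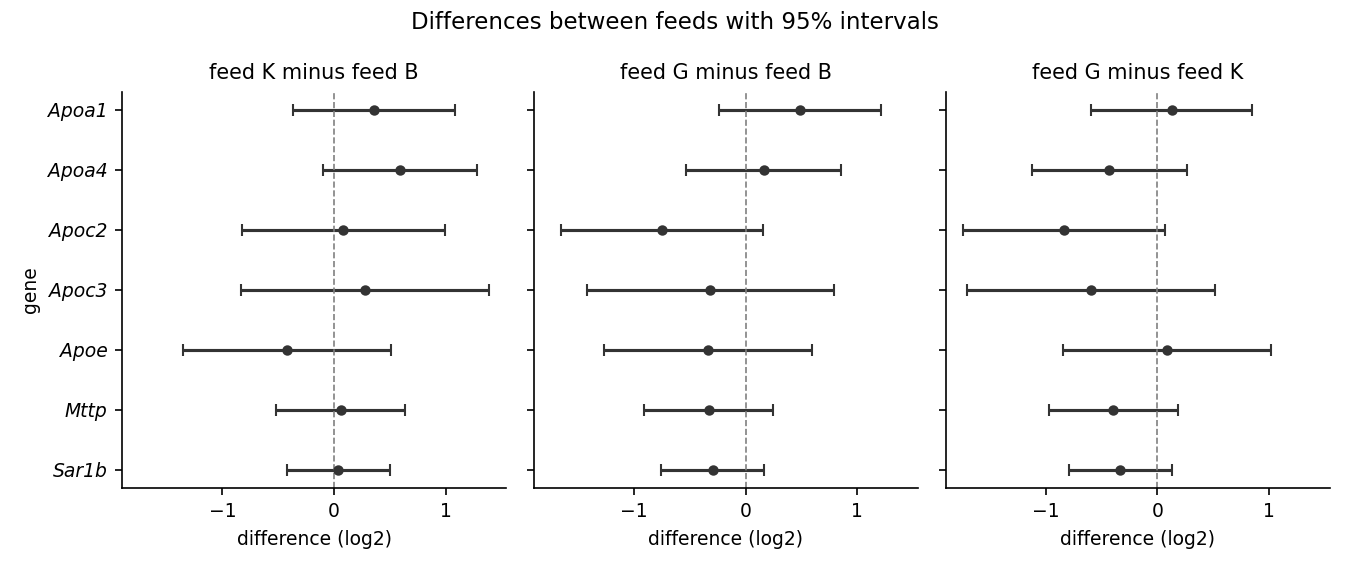
Difference between feeds in log2 signal (horizontal axis) for the 7 genes, with 95% intervals from the limma fit (3 mice per feed). Each interval includes 0. The intervals of Apoc2, Apoc3 and Apoe are the widest and those of Sar1b the narrowest.

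The estimates and their limits were as follows. Apoc2 was lower on feed G than on feed K by -0.84 ± 0.39 on the log2 scale (SE), with a 95% interval from -1.74 to 0.069, and against feed B the difference of feed G was -0.75, from -1.66 to 0.15. The first of these was -0.55 in the series table. The difference between feeds G and B was -0.32 without mouse 8 of feed B, -0.20 after median scaling, -0.41 in the series table and -1.38 without the 3 arrays rich in Fabp6. Apoa4 was higher on feed K than on feed B by 0.59 ± 0.30 (SE), from -0.10 to 1.28. Without the 3 arrays rich in Fabp6, which leaves mouse 8 alone on feed B, this difference was -0.058. It was 0.37 without mouse 7 of feed B, 0.92 without mouse 8 of feed B and 0.90 after median scaling. The interval of Sar1b for feed K against feed B ran from -0.42 to 0.50, or from 0.746-fold to 1.41-fold, and that of Apoc3 ran from -0.83 to 1.39, or from 0.563-fold to 2.62-fold. Changes within such limits were not excluded with 3 mice per feed.

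The direction of the estimates was uneven between the pairs of feeds. On feed K, 6 of 7 genes were estimated higher than on feed B, with a median of 0.085 against 0.054 over all genes tested. On feed G, 5 of 7 were lower than on feed B, Apoa1 and Apoa4 being the others, with a median of -0.32 against 0.061. Feed G was also lower than feed K for 5 of 7, Apoa1 and Apoe being the others, with a median of -0.39 against -0.0073. These comparisons share mice, so that they are not independent of one another. With each array scaled to its median, the medians over all genes themselves moved to 0.41 (K against B), 0.53 (G against B) and 0.11 (G against K). The medians of the 7 genes then were 0.42, 0.23 and -0.21, and in the authors' series table they were 0.17, 0.016 and -0.17, where all genes stood at 0.21, 0.30 and 0.071. Of the pairs, feed G against feed K therefore kept a negative median of the 7 genes under all 3 scalings. Set beside the median of all genes, that of the 7 genes was lower under all 3 scalings for feed G against feed B as well as against feed K.

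Feed G lay below feed K without overlap for 4 of 7 genes, Apoa4, Apoc2, Mttp and Sar1b, and this was so of 7.36% of all genes. It lay below feed B for 1 gene, Sar1b, where 4.65% of all genes did. No gene of the 7 separated feeds K and B, where 6.26% of all genes lay higher and 3.68% lower on feed K, and none lay higher on feed G without overlap (6.30% of all genes against feed B and 6.31% against feed K). After median scaling, and likewise in the series table, none of the 7 lay lower on feed G without overlap. The shares of all genes that did so fell as well. Against feed K they were 2.98% after median scaling and 2.91% in the series table, and against feed B 0.638% and 1.67%. Median scaling left 3 genes higher without overlap on feed K than on feed B, Apoa1, Apoa4 and Mttp, where 16.9% of all genes were, and Apoa1 higher on feed G against feed B, where 30.2% of all genes were. The separation of feeds G and K thus depended on how the arrays were scaled.

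The signals of several of these genes were positively correlated from mouse to mouse, though no pair passed the adjusted threshold. Among 21 pairs, Pearson's r was above 0 for 12 pairs. The strongest were Apoc2 with Mttp (r = 0.86, rho = 0.77), Apoc3 with Mttp (r = 0.81, rho = 0.70) and Apoc2 with Sar1b (r = 0.80, rho = 0.88). In exact permutation tests 5 pairs had an unadjusted p under 0.05 by Pearson's r and 6 by Spearman's rho, and none passed after adjustment over the 21 pairs. The smallest adjusted p were 0.075 and 0.0646 (exact permutation). Permutation p before and after adjustment was 0.00403 and 0.075 for Apoc2 with Mttp, 0.00714 and 0.075 for Apoc3 with Mttp and 0.0108 and 0.0759 for Apoc2 with Sar1b. In the same order, r was 0.64, 0.81 and 0.38 after median scaling and 0.74, 0.78 and 0.48 in the series table. Removing the 2 mice farthest from the median of the gene named first in each pair lowered r to 0.53, 0.45 and 0.77, so the pairs with Mttp lean on mouse 11 of feed G with mouse 8 of feed B for Apoc2, or with mouse 10 of feed B for Apoc3.

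**Figure D3:**
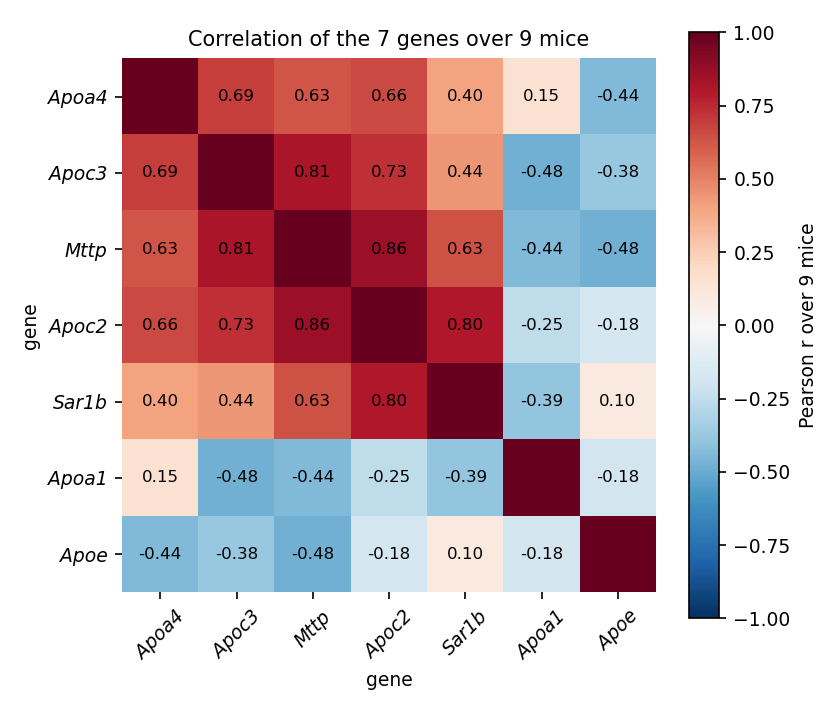
Pearson's r of log2 signal over the 9 mice for each pair of the 7 genes, coloured from -1 (blue) to 1 (red). Apoa4, Apoc3, Mttp and Apoc2 are positively correlated with one another, from 0.63 to 0.86, while Apoa1 and Apoe are mostly negatively correlated with the rest after quantile normalization. After median scaling, as in the series table, Apoa1 is positively correlated with all 6.

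Apoa4, Apoc2, Apoc3 and Mttp, a set picked after these values were seen, had r between 0.63 and 0.86 in all 6 of their pairs, between 0.60 and 0.91 after median scaling and between 0.61 and 0.78 in the series table. Without the 2 farthest mice, mouse 8 of feed B and mouse 11 of feed G, r of Apoc2 with Apoc3 dropped from 0.73 to 0.19. With feed means subtracted, r was between 0.70 and 0.88, and permutation within feeds gave an adjusted p of 0.403 for each of the 6 pairs, with 1 of them under 0.05 before adjustment. Without the 3 arrays rich in Fabp6, r over the other 6 mice was 0.87 for Apoc2 with Mttp and 0.74 for Apoa4 with Mttp, but 0.093 for Apoa4 with Apoc3. Apoa1 lies beside Apoc3 in the genome, and its correlations depended on the scaling. Its r with Apoc3 was -0.48 after quantile normalization, 0.16 after median scaling and 0.074 in the series table, and its r with Apoa4 was 0.15, 0.74 and 0.64. After quantile normalization and without mouse 11 of feed G and mouse 7 of feed B, r was 0.21 with Apoc3 and 0.57 with Apoa4. Apoe had r between -0.48 and 0.10 with the others after quantile normalization, and r with Sar1b was 0.63 after median scaling and 0.46 in the series table.

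Set against Fabp6, a relation examined after the values were seen, Apoc3 had the strongest correlation, a negative one. Pearson's r of Apoc3 with Fabp6 was -0.88 (rho = -0.93), with an exact permutation p of 0.000653, adjusted over 7 genes to 0.00457 and, for rho, to 0.00525. It was -0.79 without the 2 mice with the highest and lowest Fabp6 and -0.93 with feed means subtracted (adjusted permutation p = 0.0648, where permutation within feeds cannot go below 0.00463 unadjusted). Apoa4 had r = -0.79 (rho = -0.68, adjusted permutation p of r = 0.0490, of rho = 0.117), and r was -0.74 without those 2 mice. Mttp had r = -0.74 (rho = -0.63, adjusted permutation p of r = 0.0492, of rho = 0.133), and with r = -0.32 without those 2 mice the relation rests on them.

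For Apoc2 and Sar1b, r with Fabp6 was -0.62 and -0.25, for Apoa1 it was 0.25 and for Apoe 0.50, none with an adjusted permutation p under 0.05. Over the 6 mice with less Fabp6, r was -0.60 for Apoc3, -0.42 for Mttp and -0.059 for Apoa4, and none had an unadjusted permutation p under 0.05, so the relation rests largely on the 3 arrays rich in Fabp6. The number of genes past an adjusted p of 0.05 was 3 of 7, and it fell to 1 in the series table and to 0 after median scaling, with r of -0.88 and -0.81 for Apoc3. The share of all genes correlated as strongly with Fabp6 was not computed, so this count cannot be read as particular to the 7 genes. The part of the sampled position along the intestine was not tested.

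**Figure D4:**
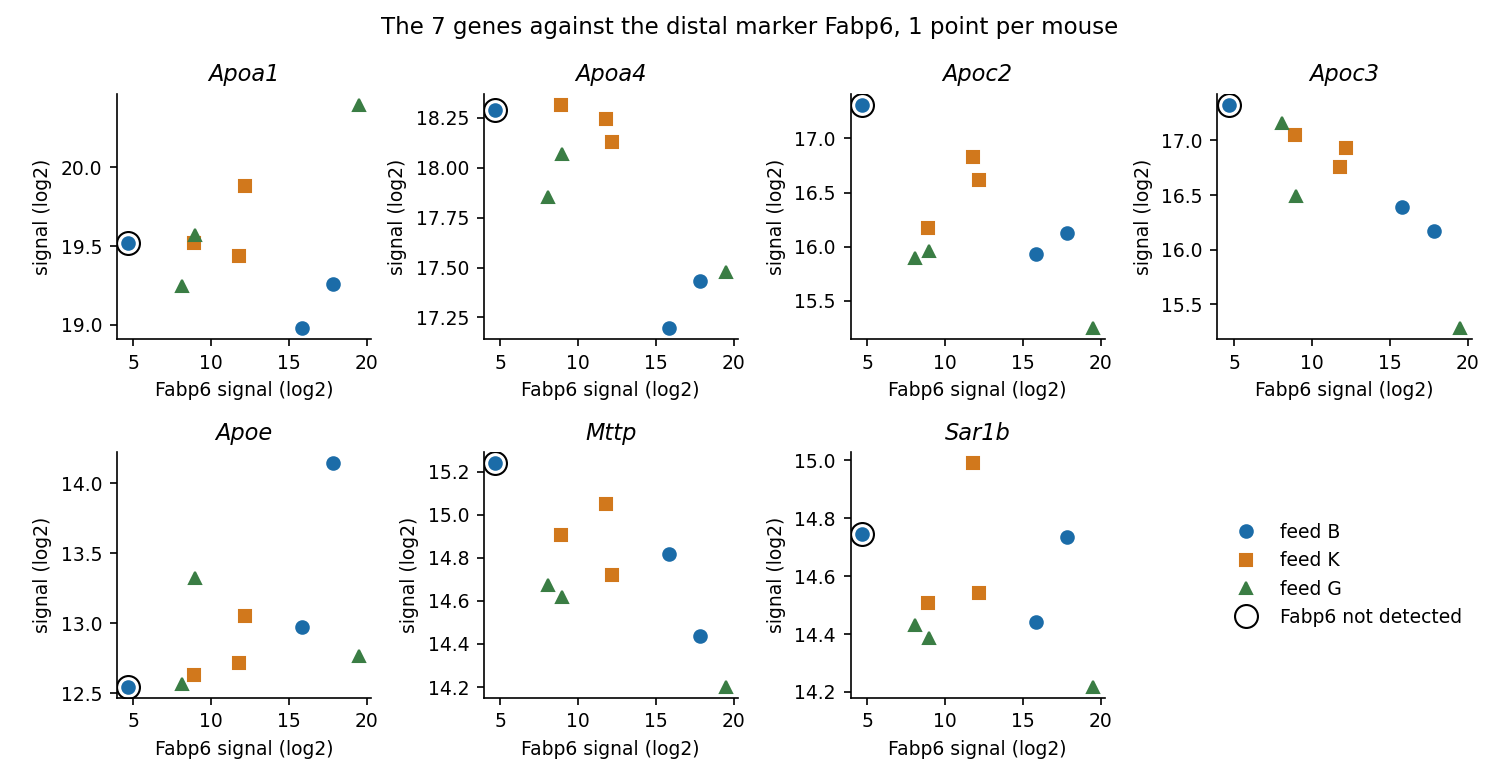
Log2 signal of each of the 7 genes (vertical axes, each with its own range) against the log2 signal of Fabp6 (horizontal axis), with 1 point per mouse coloured by feed. The ringed mouse, mouse 8 of feed B, had no detected Fabp6. Apoc3 declines along the axis (r = -0.88), whereas Sar1b does not follow it (r = -0.25).

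The genes most alike in pattern, out of 5886 genes detected on all arrays, are given by Pearson's r over the 9 mice as a description. Apoa1 was closest to Abcd3, a peroxisomal fatty acid transporter (r = 0.95), and to Nt5e, an ecto-nucleotidase (0.93). Apoa4 was closest to Max, the partner of Myc (0.96), Apoc2 to D10Bwg1364e and the Notch ligand gene Dll1 (both 0.94), and Apoc3 to Maob, a monoamine oxidase (0.97). Apoe was closest to Tram1, a component of the translocation channel of the endoplasmic reticulum (0.98). Mttp was closest to 4921526G09Rik (0.98) and Sar1b to 2810468K17Rik (0.94). An r over 0.8 was reached by 6.22% of genes for Mttp and 3.01% for Apoc3, but by 0.969% for Apoa1 and 0.544% for Apoe. Against this background, Apoc2 was more similar to Mttp than 97.0% of genes were, and Apoc3 than 94.5%.

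Other genes of the pathway were examined by list. Of 10 other apolipoproteins, 9 had a probe, and 3 were detected on enough arrays to be tested. None passed the adjusted F test. Clusterin (Clu) had means of 13.20 ± 0.16, 11.61 ± 1.53 and 13.10 ± 0.79 on feeds B, K and G (SD, n = 3), with an adjusted p of 0.903 in the limma F test. Apoa2, a protein of high density lipoprotein, was detected on 3 arrays and had a limma F p of 0.048 before and 0.894 after adjustment, and Apoc1 was detected on 8.

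Of 24 genes for Apob editing, lipid loading and export from the endoplasmic reticulum, 22 were tested and none passed either threshold of the F test. P4hb, the protein disulphide isomerase that forms the transfer complex with the product of Mttp, had means of 16.41 ± 0.32, 16.50 ± 0.23 and 15.98 ± 0.15 (SD, n = 3) and an unadjusted limma F p of 0.101. The lipid droplet coat gene Plin3 had means of 13.91 ± 0.21, 13.71 ± 0.16 and 13.37 ± 0.23, with a limma F p of 0.077. Of the 22 genes, 19 were estimated higher on feed K than on feed B, where 56.9% of all genes were, and 6 higher on feed G than on feed K, where 49.1% of all genes were. After median scaling these counts were 22 and 12, where 83.3% and 63.9% of all genes were higher.

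Of 9 tested genes for fat uptake and triglyceride resynthesis, 2 had an unadjusted F p under 0.05, beside 5.37% of all genes, and none an adjusted one. They were Gpat3, which starts glycerolipid synthesis (11.38 ± 0.19, 11.54 ± 0.21 and 10.80 ± 0.28, SD, n = 3), and the acyltransferase gene Dgat2 (13.40 ± 0.53, 14.06 ± 0.075 and 14.13 ± 0.16), with adjusted p of 0.888 and 0.894. Of 13 tested regulators, 1 had an unadjusted F p under 0.05, close to the share of all genes, namely Gata4, with means of 9.40 ± 0.55, 10.35 ± 0.15 and 9.07 ± 0.43 and an adjusted p of 0.729. Of 7 tested lipase and receptor genes, none did.

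No clock time was noted when the mice were killed, and it was not randomized over feeds. Some genes of fat absorption are known to follow the clock. Of 13 tested clock genes, 9 had an unadjusted F p under 0.05, beside 5.37% of all genes, and none an adjusted one. The clock output gene Dbp had values of 10.56, 12.46 and 9.98 on feed B, 12.69, 13.14 and 13.57 on feed K and 13.99, 13.46 and 12.73 on feed G. Mouse 8 of feed B, highest of all mice for Apoc2, Apoc3 and Mttp, thus had the highest Dbp of its feed and no detected Fabp6. Among the 4 clock genes with the smallest F p, Nr1d2 and Per2 also had their highest feed B value in mouse 8. Nfil3 had its highest in mouse 10, and Hlf, not detected on feed B, in mouse 7. The part of sampling time in the signals of the 7 genes was not tested.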

How the data were processed

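Jejunal RNA of 9 mice was hybridized to 1 array each. Per the file headers and the methods, the authors deposited a spot intensity after background correction and spatial normalization, next to its standard deviation, a signal-to-noise score and a quality flag. The authors also deposited a series table, whose 297108 values equal the assay-normalized signal intensity of the arrays, linear and not centred, with what they were divided by unknown. The labels' processing notes name RMA, with no role given. The labels give Trizol and RNeasy for RNA isolation, whereas the methods give Qiazol and miRNeasy. The genome build of the probe annotation is not given in the sources used here.

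Spots flagged above 5000 were removed. The remaining intensities of the 9 arrays underwent quantile normalization (arithmetic mean) and log2 transformation, and probes that share a gene were averaged. A gene was detected at a signal-to-noise ratio of 3 and tested if detected on at least 3 arrays. Between 33.7% and 48.1% of 33012 probes were detected per array. The shares were 36.7%, 33.7% and 43.6% in mice 7, 8 and 10 of feed B. They were 41.2% to 47.6% on feed K and 46.4% to 48.1% on feed G. Feeds were compared with limma 3.58.1 in R 4.3.3 (lmFit, eBayes, F and pairwise contrasts, Benjamini-Hochberg adjustment over all genes at 0.05). Correlations used Python 3.11.15, numpy 2.4.6 and scipy 1.17.1, with all 362880 pairings of the mice permuted, two-sided. The quantile normalization and the limma fit were tested on simulated data. The number of arrays limits the precision.

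As alternatives, arrays were scaled to their median, or failed spots, the brightest of several probes or the series table were used. Other settings were no filter on dim genes, detection on all 9 arrays, an intensity trend, feed means subtracted and each array left out. Those that concern Fabp6 were chosen after seeing the data. The members and lists were chosen with earlier results of these data known. Named genes are the members, up to 4 genes of a pathway list with the smallest F p, the 3 most similar genes of each member (some of which are not printed), and Dbp, marker genes and Fabp6, which were named after their values were seen.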

Additional observations from a re-analysis of the deposited data

Results flagged for a closer look

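Apoe in mouse 10 of feed B lay apart from the other 8 mice. Its gap to the nearest mouse was 0.513 of the whole range over 9 mice, above the Dixon limit of 0.493. Chance alone flags about 1 in 20 such groups, and each of the 7 genes was examined over the 9 mice. The spot had no failed flag.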

How the results depend on the processing

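No paired analysis was possible because the feeds share at most 1 mouse number and the labels do not say that it marks a shared litter or day. In none of the alternatives did a member pass the adjusted threshold in the F test (adjusted p between 0.297 and 0.992) or in a pair of feeds. Over all genes, the F test called 1 gene when only genes detected on all 9 arrays were tested, and 0 to 3 with an array left out (3 without mouse 10 of feed B). For feed K against feed B it was 0 to 10 with an array left out (10 without mouse 10 of feed B) and 102 without the 3 arrays rich in Fabp6, where the lone mouse of feed B is assumed to vary like the others. For feed G against feed B it was 1 with detection on all 9 arrays and 0 to 3 with an array left out (3 without mouse 10 of feed B). For feed G against feed K no setting called a gene. The correlated pairs past the adjusted threshold were 1 after median scaling (Apoa4 with Mttp, r = 0.91) and 0 to 3 with an array left out (3 without mouse 7 of feed B or mouse 4 of feed G). The genes correlated with Fabp6 were 0 after median scaling or with feed means subtracted, 1 in the series table or with failed spots kept, and 1 to 3 with an array left out. They were 1, Apoc3, without mouse 8 or 10 of feed B, mouse 1 or 3 of feed K, or mouse 8 or 11 of feed G.

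Estimated differences that were not called changed sign as follows, on the log2 scale. Median scaling gave 0.23 (Apoc3), 0.21 (Apoe), 0.20 (Mttp) and 0.25 (Sar1b) for feed G minus feed B and 0.012 (Apoe) for feed K minus feed B. The series table gave 0.016 (Apoc3), 0.0026 (Apoe) and 0.035 (Sar1b) for feed G minus feed B. Without the 3 arrays rich in Fabp6, feed K minus feed B was -0.058 (Apoa4), -0.77 (Apoc2), -0.42 (Apoc3), 0.25 (Apoe), -0.35 (Mttp) and -0.065 (Sar1b), feed G minus feed B was -0.11 (Apoa1), -0.33 (Apoa4) and 0.40 (Apoe), and feed G minus feed K was -0.20 (Apoa1). With an array left out, feed K minus feed B ranged from -0.18 to 0.51 for Apoc2 (below 0 without mice 7 or 10 of feed B or mouse 4 of feed K), from -0.76 to 0.039 for Apoe (above 0 without mouse 10 of feed B), from -0.14 to 0.27 for Mttp (below 0 without mouse 10 of feed B or mouse 4 of feed K) and from -0.12 to 0.13 for Sar1b (below 0 without mouse 7 of feed B or mouse 4 of feed K). Feed G minus feed B ranged from -0.060 to 0.49 for Apoa4 (below 0 without mouse 7 of feed B), from -0.74 to 0.20 for Apoc3 (above 0 without mouse 8 of feed B or mouse 11 of feed G) and from -0.67 to 0.12 for Apoe (above 0 without mouse 10 of feed B). Feed G minus feed K ranged from -0.20 to 0.37 for Apoa1 (below 0 without mouse 11 of feed G) and from -0.14 to 0.25 for Apoe (below 0 without mouse 8 of feed G). The cause of these changes was not tested.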
